A study of Homo sapiens with 18 samples.

Results

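The genes described here are 38 members of the unfolded protein response and of the amino acid stress response driven by the transcription factor ATF4, out of 23571 named genes in the expression table. They were chosen by symbol from a list of pathway genes, and all 38 symbols were found. The list sets no threshold on a measured value, but it was drawn up with earlier results of these data known. Expression was measured by RNA sequencing in 18 libraries of the SW48 line, established from a human colon adenocarcinoma, in 6 groups of 3. The control cells received a negative control siRNA, and the test cells an siRNA against CHD4 (siCHD4), an ATPase of the NuRD chromatin remodelling complex. Each was given alone, with an siRNA against the maintenance DNA methyltransferase DNMT1 (siDNMT1), or with 50 nM decitabine, a cytidine analogue that traps DNA methyltransferases. In the groups without a second treatment the siRNA was given on days 1, 3 and 6 and cells were harvested on day 8. In the siDNMT1 groups siDNMT1 was given on days 1, 3 and 5, the control or CHD4 siRNA on days 7 and 8, and the harvest was on day 11. In the decitabine groups the drug was given on days 1, 2 and 3, the siRNA on days 1 and 2, and the harvest was on day 5. All libraries thus come from 1 cell line, and every group received an siRNA. Whether libraries of 1 group come from separate cultures is not stated in the labels. The p-values below therefore reflect library-to-library spread alone, and that spread may be technical.

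When unfolded protein builds up in the endoplasmic reticulum (ER), the membrane sensors IRE1 (the product of ERN1), PERK (the product of EIF2AK3) and ATF6 start a programme known as the unfolded protein response. IRE1 splices the mRNA of XBP1, ATF6 is cut to release a transcription factor, and both raise chaperones and degradation factors of the ER. PERK phosphorylates the initiation factor eIF2, as do kinases that sense amino acid shortage, haem shortage and double-stranded RNA, which slows general translation but favours translation of ATF4. ATF4 then raises genes of amino acid synthesis, transport and tRNA charging, together with the stress factors DDIT3 (also called CHOP), TRIB3 and CHAC1. Much of this regulation acts through splicing, cleavage and translation, which gene-level RNA values do not measure.

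Promoter windows of the members whose motifs bear on the chaperone and amino acid results are shown first, since genes with the same element did not all move together. Sequences are those of RefSeq on GRCh38.p14, from 250 bases before to 50 bases after each listed start, and 33 of the 38 members had an entry. The ER stress response element (ERSE), bound by ATF6 with the factor NF-Y, was searched on both strands as CCAAT, 9 bases of any kind and CCACG. Its second form (ERSE-II) was searched as ATTGG, 1 base and CCACG. The unfolded protein response element (UPRE) was searched as TGACGTGG and the C/EBP-ATF response element (CARE), bound by ATF4 with C/EBP factors, as TGATGNAA. Capitals mark the matched letters on the printed strand, so an ERSE on the other strand reads CGTGG, 9 bases and ATTGG, and the base of any kind in a CARE stays in lower case.
HSPA5 (chr9:125241344-125241433, minus strand): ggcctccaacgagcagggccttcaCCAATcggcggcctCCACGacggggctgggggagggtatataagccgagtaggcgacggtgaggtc
HSP90B1 (chr12:103930205-103930350, plus strand): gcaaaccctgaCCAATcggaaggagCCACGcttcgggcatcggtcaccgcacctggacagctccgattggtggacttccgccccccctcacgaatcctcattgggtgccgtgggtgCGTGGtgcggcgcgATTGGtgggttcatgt
CALR (chr19:12938369-12938419, plus strand): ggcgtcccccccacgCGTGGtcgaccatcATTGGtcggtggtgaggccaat
HYOU1 (chr11:119057260-119057405, minus strand): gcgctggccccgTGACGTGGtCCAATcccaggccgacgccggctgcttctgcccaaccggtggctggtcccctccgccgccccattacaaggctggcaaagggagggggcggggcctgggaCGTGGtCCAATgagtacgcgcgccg
CANX (chr5:179698764-179698809, plus strand): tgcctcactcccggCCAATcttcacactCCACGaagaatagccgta
CRELD2 (chr22:49918539-49918589, plus strand): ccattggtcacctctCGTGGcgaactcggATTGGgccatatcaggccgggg
XBP1 (chr22:28800589-28800639, minus strand): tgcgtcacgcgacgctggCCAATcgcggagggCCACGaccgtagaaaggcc
ASNS (chr7:97872453-97872498, minus strand): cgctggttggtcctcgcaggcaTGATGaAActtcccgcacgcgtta
CHAC1 (chr15:40953246-40953286, plus strand): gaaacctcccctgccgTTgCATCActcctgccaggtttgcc
The ERSE of HSPA5 lay at bases -66 to -48 from the start and that of XBP1 at -52 to -34. HSP90B1 held 2 of them, at -194 to -176 and at -89 to -71, on opposite strands. HYOU1 held an ERSE-II that overlapped the UPRE at -188 to -181, and another at -79 to -69. An ERSE was found in 7 of 33 members (21.2%), of which 6 were among the 12 chaperone and folding genes with an entry (50%), against 25 of 27305 genes in the table (0.0916%). An ERSE-II was found in 3 members (9.09%, HYOU1, SDF2L1 and HERPUD1) against 0.0696% of genes, and the UPRE in 1 (3.03%) against 0.927%. A CARE was found in 5 members (15.2%, ATF3, CHAC1, ASNS, SLC3A2 and HERPUD1) against 4.46% of genes. A match describes letters in these windows and does not show a bound site.

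Values are FPKM (fragments counted per kilobase of transcript and relative to library depth), so levels can be compared between genes per unit of length. Differences are on the scale of log2(FPKM + 1), and a gene is called higher or lower at a Benjamini-Hochberg adjusted p below 0.05 in a limma model over the 12809 genes that reached 1 FPKM in 3 or more libraries. Of the 38 members 37 were tested. ATF3, a stress-induced transcription factor, lay between 0.24 and 1.02 FPKM and was not. A total of 35 members reached 1 FPKM in every library, the others being ATF3, SLC7A11 and CHAC1.

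The targeted transcripts come first, as a check of the labels. CHD4 (chr12:6679248-6723690 on GRCh37) was at 59.1, 61.2 and 68.2 FPKM with control siRNA and 39.0, 31.8 and 23.2 with siCHD4, at 63.7, 67.1 and 73.9 against 29.0, 27.1 and 29.1 with siDNMT1, and at 66.8, 80.2 and 81.5 against 55.6, 56.5 and 52.6 with decitabine. The groups were separate in all 3, but the decitabine comparison was not called, at -0.46 ± 0.14 (adjusted p = 0.0752). DNMT1 fell from 44.7 ± 0.892 to 12.3 ± 1.15 FPKM (SD, n = 3) with siDNMT1. The file holds no counts, but the commonest ratio between libraries at low values gives their relative depth. One fragment was worth 4.11 times as much in replicate 0 of control siRNA with decitabine as in replicate 0 of the control group, and between 0.599 and 1.12 times as much in the other libraries. That library was the shallowest, and it stood apart from its 2 partners in HSP90B1 (184 against 371 and 357 FPKM) and DNAJC3 (16.1 against 34.3 and 34.4). Replicate 2 of siCHD4 also stood apart from replicates 0 and 1 in several members and had the lowest CHD4 of its group. The epithelial markers EPCAM, KRT8, KRT18, CDH1 and CDX2 were expressed in every library, CDX2, the lowest of the 5, at no less than 31.1 FPKM, whereas CDX1 did not exceed 0.0417 FPKM. The summed level of 6 fibroblast markers ran from 0.0606 to 0.434 FPKM in the control group to 12.7 to 14.6 in siCHD4 with siDNMT1, where LUM and COL1A1 made up most of it. COL3A1 was listed at 0 in all 18 libraries and COL1A2 did not exceed 0.019 FPKM. For 5 blood cell markers the range was 0.66 to 1.66 and 4.85 to 5.63 FPKM in the same groups, with CD3E at most 0.0927, and 4 endothelial markers did not sum above 0.529 in any library.

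With siDNMT1 present, siCHD4 raised 6 of 13 ER chaperone and folding genes, ERN1 and 3 of 5 stress effectors, and lowered 5 of 6 genes of amino acid and one-carbon synthesis. HSPA5, encoding the main ER chaperone BiP, was higher by 0.98 ± 0.12 (SE, adjusted p = 1.28e-05), while SHMT2, the mitochondrial serine hydroxymethyltransferase, changed by -0.83 ± 0.14 (SE, adjusted p = 0.000184). In this comparison 14 members were called higher, against 24.8% of all genes, and 6 lower, against 24.6%. As shares of the 37 tested members these are 37.8% and 16.2%. The median change was 0.13 over the members and -0.01 over all genes tested, both on the log2 scale. In bulk libraries such as these, a change in RNA per cell and a change in the share of cells that express a gene cannot be told apart.

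Without a second treatment siCHD4 raised 1 member, PDIA4, and lowered 2, EIF2AK3 and ATF4, where 9.58% of all genes were called higher and 9.71% lower. With decitabine it raised 1, HSPA5, and lowered 0, where 3.26% of all genes were called higher and 1.31% lower. The members' shares of adjusted calls in both comparisons lay at or below these backgrounds for higher and lower calls. At an unadjusted p below 0.05 the counts were 14 and 8 members. The share of all genes at that threshold was not computed, here or for the unadjusted counts below, so they have no background. The count of adjusted calls with siCHD4 alone rests on few libraries. It became 10 when the shallowest library was left out of the shared fit. ERN1, DDIT4 and SEL1L were added as higher and HERPUD1, MTHFD2, PSAT1 and SLC7A11 as lower. In that fit 12.8% of all genes were called higher and 14.1% lower. The count became 1 without control replicate 0 (6.15% and 5.81% of all genes) or 1 (5.95% and 5.64%). It became 7 without siCHD4 replicate 1 (9.66% and 10.3%). It was also 7 without siCHD4 replicate 2 (8.01% and 8.08%). That removed ATF4 and added CEBPB, PHGDH and SLC3A2 as higher and DNAJB9 and SLC7A11 as lower. No member was called in all 3 siCHD4 comparisons, none was called in opposite directions, and 21 were called in at least 1. The same counts over all genes were not made, so these have no background. In the siDNMT1 comparison by itself 20 of the 37 tested members were called, beside 6323 of the 12809 genes tested.

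**Figure D1:**
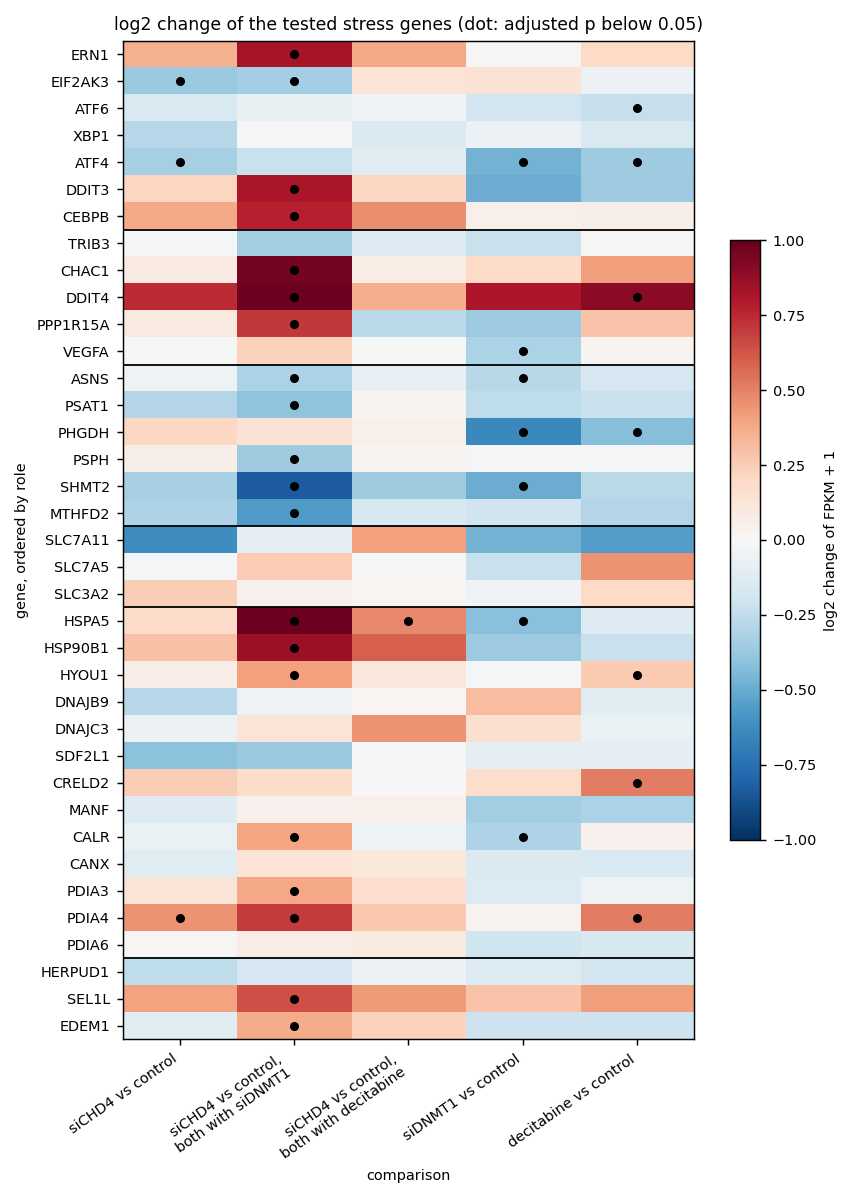
Colour gives the log2 change of FPKM + 1 of each of the 37 tested genes (rows, in blocks by role) in 5 comparisons (columns), and a dot marks an adjusted p below 0.05. The siCHD4 comparison with siDNMT1 holds 20 dots, the one without a second treatment 3 and the one with decitabine 1.

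Among the sensors and transcription factors 3 of 7 tested rose (42.9%) and 1 fell (14.3%) with siCHD4 on top of siDNMT1. Of all genes 24.8% were called higher and 24.6% lower there. ERN1 (chr17:62116440-62208179 on GRCh37), which encodes IRE1, was at 2.08, 2.06 and 1.98 FPKM in control siRNA with siDNMT1 and at 4.21, 4.27 and 4.70 in siCHD4 with siDNMT1. The lowest treated library was far above every control library. The log2 change was 0.83 ± 0.12 (SE, adjusted p = 8.32e-05). With control siRNA alone ERN1 was at 1.82, 2.31 and 1.93 FPKM and with siCHD4 alone at 2.78, 2.46 and 3.35. These groups did not overlap either, but the change of 0.35 ± 0.12 (adjusted p = 0.0546) was not called. With decitabine the values were 1.87, 2.55 and 3.05 against 3.79, 3.66 and 3.16 FPKM, again without overlap and not called at 0.39 ± 0.12 (adjusted p = 0.0914).

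EIF2AK3 (chr2:88856259-88991036), which encodes the eIF2 kinase PERK, moved the other way. It was at 7.53, 7.70 and 7.51 FPKM with control siRNA and 5.43, 5.18 and 6.30 with siCHD4. Every siCHD4 library was below every control library, with a log2 change of -0.37 ± 0.11 (SE, adjusted p = 0.0222). With siDNMT1 it was at 8.06, 8.92 and 8.43 against 6.63, 6.56 and 6.24 FPKM, also fully separated, with a change of -0.34 ± 0.11 (SE, adjusted p = 0.0147). With decitabine the values of 5.90, 8.77 and 7.22 and 7.75, 8.39 and 8.01 FPKM overlapped. Both calls depended on single libraries. With siDNMT1 the adjusted p became 0.0558 without control replicate 1 and 0.0521 without siCHD4 replicate 2. Without a second treatment it became 0.0592 without control replicate 0 and 0.0684 without control replicate 1. Leaving out siCHD4 replicate 0 or 1 gave 0.0527 or 0.0648.

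ATF4 (chr22:39915700-39918688), the transcription factor of the amino acid response, was among the more abundant members, at 221, 224 and 206 FPKM in the control group. It was lower in all 15 libraries of the other groups. Values were 181, 198 and 143 FPKM with siCHD4, 150.5, 158 and 159 with siDNMT1 and control siRNA, and 128, 148 and 125 with siDNMT1 and siCHD4. With decitabine they were 180.4, 165 and 163 for control siRNA and 162, 144 and 167 for siCHD4. The change with siCHD4 alone was -0.33 ± 0.11 (SE, adjusted p = 0.0467), and it was not called without siCHD4 replicate 2 (adjusted p = 0.158), the library with the lowest value of its group, nor without any of the 3 control replicates (0.122, 0.134 and 0.0594) or siCHD4 replicate 0 (0.0534). With siDNMT1 the siCHD4 change was -0.23 ± 0.11 (adjusted p = 0.0983) and with decitabine -0.10 ± 0.11 (adjusted p = 0.607), neither of them called. In FPKM the ATF4 libraries were separate between the siDNMT1 groups and overlapped between the decitabine groups. Under quantile normalization these 2 changes turned to 0.0257 and 0.0251, so no direction is given for them.

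DDIT3, the pro-apoptotic factor CHOP, was at 8.85, 8.89 and 7.96 FPKM in control siRNA with siDNMT1 and at 14.6, 18.2 and 14.8 with siCHD4 added. The groups were well apart, with a change of 0.81 ± 0.17 (SE, adjusted p = 0.00143). In the control group its libraries spread widely, at 11.5, 9.67 and 17.4 FPKM, and enclosed the siCHD4 values of 14.0, 15.6 and 14.4. With decitabine DDIT3 was at 12.3, 8.86 and 7.78 against 11.6, 10.2 and 11.5 FPKM, which overlap. CEBPB, a bZIP factor that pairs with ATF4 and CHOP, was at 5.47, 5.84 and 6.47 FPKM against 11.2, 11.8 and 9.59 with siDNMT1. All treated libraries were higher, by 0.78 ± 0.15 (SE, adjusted p = 0.00083). Without a second treatment CEBPB was at 5.96, 5.53 and 5.50 against 6.93, 10.5 and 6.12 FPKM, where siCHD4 replicate 1 was far above its partners, and with decitabine at 5.61, 5.03 and 7.41 against 8.65, 8.72 and 8.43. Neither of these was called (adjusted p = 0.0942 and 0.109).

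XBP1, the transcription factor whose mRNA IRE1 splices, was not called in any of the 5 comparisons. It was at 69.2, 70.9 and 79.0 FPKM with control siRNA, 63.0, 70.0 and 48.3 with siCHD4, 73.5, 73.4 and 63.9 with siDNMT1 and control siRNA, and 65.7, 75.2 and 66.6 with siDNMT1 and siCHD4. All of these groups overlapped, and the change with siDNMT1 was -0.02 ± 0.14 (adjusted p = 0.906). Spliced and unspliced XBP1 are not separated in the table. ATF6, the sensor that becomes a transcription factor, ranged from 12.9 to 17.0 FPKM over the 18 libraries, and its siCHD4 changes of -0.15 ± 0.07, -0.07 ± 0.07 and -0.04 ± 0.07 (alone, with siDNMT1 and with decitabine) were not called. ATF3 was at 0.24, 0.33 and 0.381 FPKM in control siRNA with siDNMT1 and 1.02, 0.87 and 0.89 with siCHD4 added. These groups did not overlap, but ATF3 lies below the filter and was not tested.

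**Figure D2:**
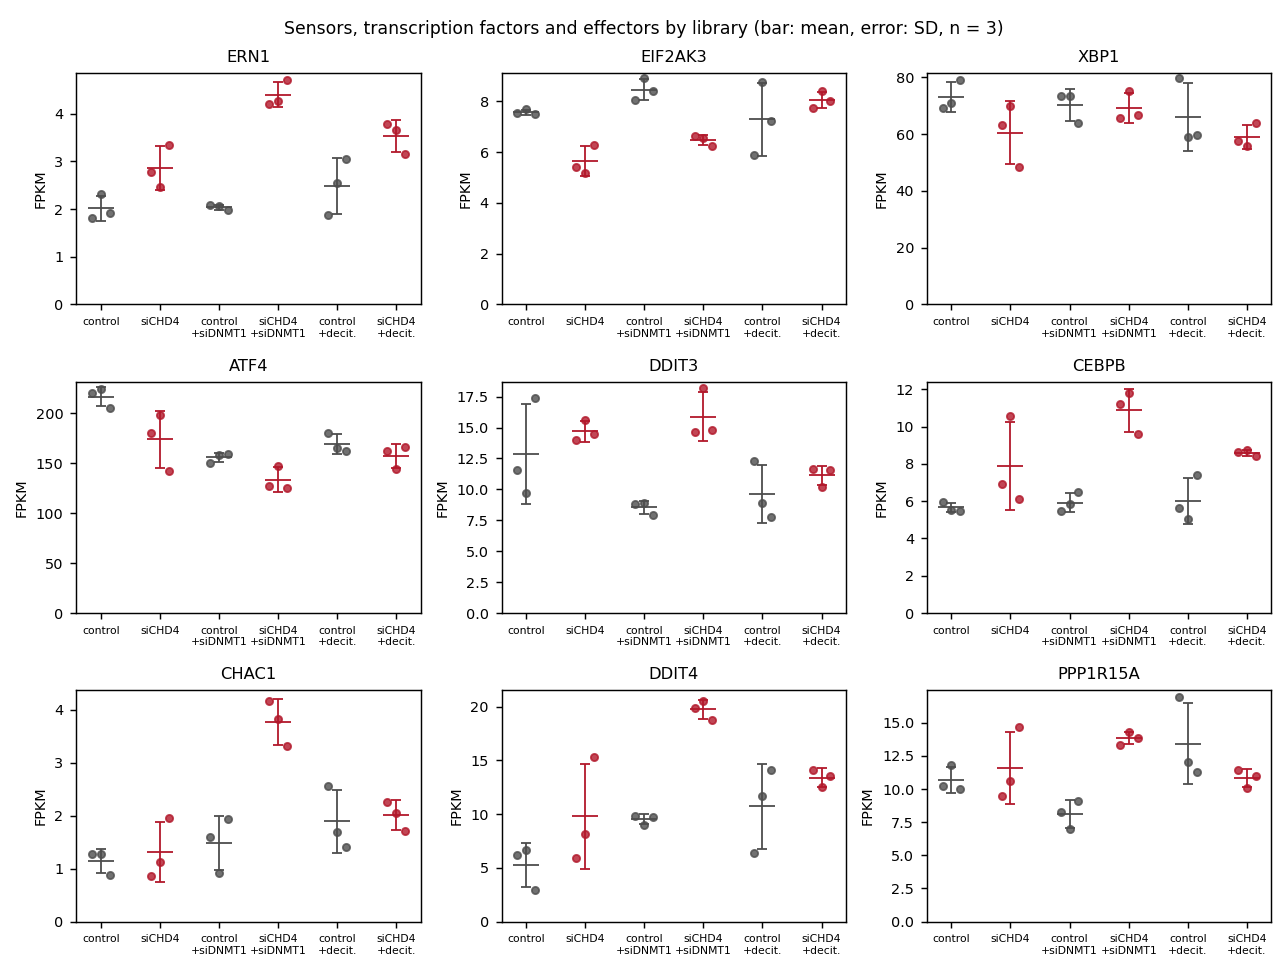
FPKM of sensors, transcription factors and effectors in each of the 18 libraries (points), with group means (horizontal bars) and SD (error bars, n = 3), control siRNA groups in grey and siCHD4 groups in red. ERN1, DDIT3, CEBPB, CHAC1, DDIT4 and PPP1R15A separate fully between the siDNMT1 groups, with siCHD4 higher. EIF2AK3 and ATF4 also separate, with siCHD4 lower in FPKM, though ATF4 was not called there. XBP1 overlaps.

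Of the 5 stress effectors and feedback genes 3 rose (60%) and 0 fell with siCHD4 on top of siDNMT1. All genes called there were 24.8% higher and 24.6% lower. With siCHD4 alone 0 of the 5 were called and with decitabine 0, where 1 and 0 passed an unadjusted p below 0.05. CHAC1, an ATF4 and CHOP target that degrades glutathione, was a low gene at 1.60, 0.921 and 1.93 FPKM in control siRNA with siDNMT1 and at 4.17, 3.82 and 3.32 with siCHD4. All 3 treated libraries were above the highest control library, with a change of 0.96 ± 0.19 (SE, adjusted p = 0.000812). In the control group it was at 1.28, 1.28 and 0.885 FPKM and with siCHD4 alone at 0.867, 1.12 and 1.95, which overlap. DDIT4, a stress-induced inhibitor of mTORC1 also called REDD1, was at 9.86, 9.02 and 9.73 FPKM against 19.9, 20.5 and 18.8 with siDNMT1. Its treated libraries were close together and far above the controls, with a change of 0.98 ± 0.30 (SE, adjusted p = 0.0142). With siCHD4 alone the values of 5.94, 8.11 and 15.3 FPKM overlapped the control values of 6.22, 6.66 and 2.93, and replicate 2 stood far above its partners.

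PPP1R15A, also called GADD34, brings a phosphatase to eIF2 and so reverses the translational block. It was at 8.27, 6.97 and 9.11 FPKM in control siRNA with siDNMT1 and 13.4, 14.3 and 13.9 with siCHD4. The groups did not overlap, and the change was 0.71 ± 0.15 (SE, adjusted p = 0.00153). With decitabine the values were 17.0, 12.0 and 11.3 FPKM for control siRNA and 11.5, 10.1 and 11.0 for siCHD4, overlapping, with a change of -0.27 ± 0.15 (adjusted p = 0.345). TRIB3, a pseudokinase that feeds back on ATF4, was not called. It was at 11.2, 10.3 and 10.7 FPKM against 8.89, 7.57 and 8.16 with siDNMT1, all 3 treated libraries being lower, at -0.35 ± 0.17 (adjusted p = 0.0906). VEGFA, an angiogenic factor that ATF4 and hypoxia raise, had a log2 difference of 0.23 ± 0.09 (adjusted p = 0.0515) in the same comparison and was not called either.

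Of the 6 genes of amino acid and one-carbon synthesis 5 fell (83.3%) with siCHD4 on top of siDNMT1 and 0 rose. Of all genes 24.6% were called lower and 24.8% higher. The median change of the 6 was -0.38, beside -0.01 for all genes tested. SHMT2 (chr12:57623356-57628718 on GRCh37) was at 99.0, 94.6 and 99.3 FPKM in control siRNA with siDNMT1 and at 55.1, 55.0 and 53.1 with siCHD4, with almost no spread in either group. The change was -0.83 ± 0.14 (SE, adjusted p = 0.000184). MTHFD2, the mitochondrial folate enzyme that follows SHMT2, was at 152, 143 and 132 against 93.4, 102 and 92.3 FPKM. No treated library reached a control library, and the change was -0.57 ± 0.11 (SE, adjusted p = 0.000828). PSAT1, the transaminase of serine synthesis, was at 57.4, 55.0 and 57.1 against 43.8, 42.9 and 40.8 FPKM, lower in every treated library, with a change of -0.40 ± 0.10 (SE, adjusted p = 0.00486).

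PSPH, the phosphatase that completes serine synthesis, was at 21.8, 21.9 and 22.3 FPKM against 15.6, 16.9 and 18.5, a change of -0.36 ± 0.09 (SE, adjusted p = 0.00497). ASNS, asparagine synthetase and a standard ATF4 target, was at 23.2, 23.4 and 22.9 against 17.5, 19.8 and 17.8 FPKM. Both genes separated fully between the groups, and ASNS changed by -0.32 ± 0.09 (SE, adjusted p = 0.00632). PHGDH, the enzyme that commits glycolytic carbon to serine, was the exception among the 6, at 23.1, 20.3 and 23.7 against 25.2, 23.4 and 25.7 FPKM and 0.14 ± 0.11 (adjusted p = 0.3). A CARE was found before the starts of both ASNS, which fell, and CHAC1, which rose.

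Without a second treatment none of the 6 was called, and 3 passed an unadjusted p below 0.05. SHMT2 was at 138, 138 and 139 FPKM with control siRNA and 121, 137 and 79.8 with siCHD4, MTHFD2 at 157, 158 and 174 against 149, 141 and 107, and PSAT1 at 65.4, 65.6 and 72.3 against 65.5, 55.9 and 45.8. In all 3 genes siCHD4 replicate 2 was the lowest library. Their changes were -0.33 ± 0.14 (adjusted p = 0.099), -0.31 ± 0.11 (adjusted p = 0.0631) and -0.29 ± 0.10 (adjusted p = 0.0603). ASNS was at 27.7, 25.9 and 31.6 against 27.9, 27.6 and 26.1 FPKM, which overlap. With decitabine none was called and 1 passed an unadjusted p below 0.05. That was SHMT2, at 122, 112 and 109 FPKM against 92.0, 85.7 and 90.6, separated and at -0.35 ± 0.14 (adjusted p = 0.166).

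**Figure D3:**
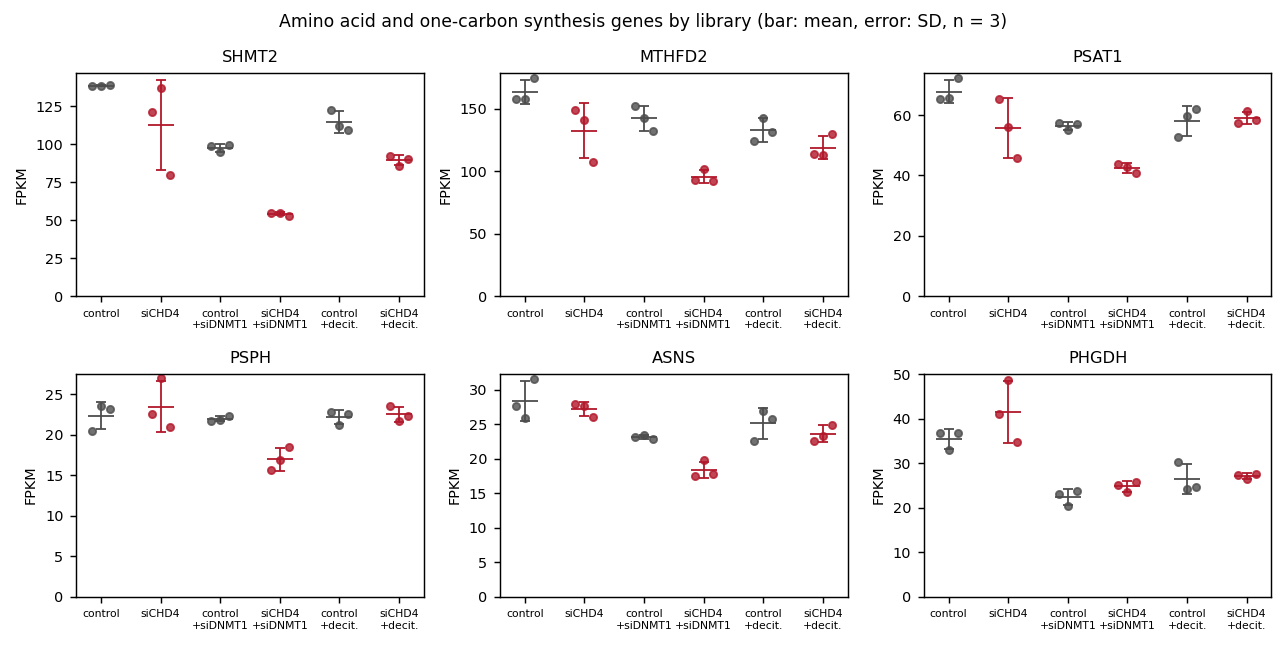
FPKM of 6 amino acid and one-carbon synthesis genes in each of the 18 libraries (points), with group means (horizontal bars) and SD (error bars, n = 3), control siRNA groups in grey and siCHD4 groups in red. With siDNMT1 the 3 siCHD4 libraries of SHMT2 lie between 53.1 and 55.1 FPKM and the 3 control libraries between 94.6 and 99.3, and PHGDH is the only one of the 6 whose siDNMT1 groups overlap.

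The 3 amino acid transporters among the members were not called in any siCHD4 comparison, and 2 passed an unadjusted p below 0.05 with siCHD4 alone. SLC7A11, the cystine carrier, was low throughout, at 1.80, 1.94 and 1.54 FPKM with control siRNA and 0.496, 0.59 and 1.41 with siCHD4. The groups did not overlap, and the change of -0.62 ± 0.23 (adjusted p = 0.0688) was called when the shallowest library, in which SLC7A11 was at 0.141 FPKM, was left out of the shared fit (adjusted p = 0.00501). SLC7A5, the large neutral amino acid carrier, and SLC3A2, the heavy chain that both carriers need, had log2 differences of 0.25 ± 0.17 (adjusted p = 0.223) and 0.04 ± 0.10 (adjusted p = 0.742) with siDNMT1.

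Of the 13 ER chaperone and folding genes 6 rose (46.2%) with siCHD4 on top of siDNMT1 and 0 fell, with a median change of 0.19. Beside them stand the 24.8% of all genes called higher and 24.6% lower. HSPA5 (chr9:127997132-128003661 on GRCh37, minus strand) was at 87.1, 109.7 and 104 FPKM in control siRNA with siDNMT1 and 198, 184 and 214 with siCHD4. Every treated library was far above every control library. With decitabine it was at 121, 119 and 128 against 164, 190.1 and 162 FPKM, also separated, with a change of 0.48 ± 0.12 (SE, adjusted p = 0.0258). With no second treatment it was at 127, 136 and 139 against 154, 129.9 and 179 FPKM, which overlap, with a change of 0.19 ± 0.12 (adjusted p = 0.263). The decitabine call was lost without any of 4 single libraries, with an adjusted p of 0.0521 without control replicate 0 and 0.0764 without control replicate 1. It was 0.0623 without siCHD4 replicate 0 and 0.142 without siCHD4 replicate 1.

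HSP90B1, the ER member of the HSP90 family (GRP94), was at 263, 279.9 and 250.03 FPKM against 448, 512 and 484 with siDNMT1. The groups were far apart, with a change of 0.86 ± 0.22 (SE, adjusted p = 0.00446). With decitabine it was at 184, 371 and 357 against 406, 439 and 480.2 FPKM, separated but not called at 0.60 ± 0.22 (adjusted p = 0.143), the lowest control being the shallowest library. HYOU1, the nucleotide exchange factor of BiP, was at 57.3, 53.3 and 59.3 against 77.0, 74.2 and 75.4 FPKM with siDNMT1. Its libraries were tight within each group, and the change was 0.41 ± 0.06 (SE, adjusted p = 0.000127). With siCHD4 alone HYOU1 was at 56.5, 55.2 and 60.6 against 58.2, 60.5 and 61.9 FPKM, which overlap.

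The disulfide isomerase PDIA4 (chr7:148700154-148725754) was at 236, 228 and 267 FPKM with control siRNA and 319, 341 and 336 with siCHD4. All siCHD4 libraries were higher, by 0.45 ± 0.08 (SE, adjusted p = 0.00205), and the call held with each library left out in turn but not in a fit of the compared groups alone (adjusted p = 0.0629). With siDNMT1 it was at 250.1, 238 and 259 against 386, 426 and 403 FPKM, a change of 0.70 ± 0.08 (SE, adjusted p = 1.42e-05). With decitabine the values of 329.6, 359.8 and 359 and 425, 396 and 445 FPKM were also separated but not called at 0.27 ± 0.08 (adjusted p = 0.0882). PDIA4 was thus higher in every siCHD4 library than in every matched control library of all 3 comparisons. The same was true of ERN1 and CEBPB, and SHMT2 was lower in this way in all 3. The share of all genes that separate so was not computed. PDIA3, the isomerase that works with calreticulin on glycoproteins, was at 190.0, 199.6 and 184 against 238, 256 and 258 FPKM with siDNMT1, a change of 0.39 ± 0.09 (SE, adjusted p = 0.00298). CALR, calreticulin, the most abundant member in every group mean, was at 436, 436 and 461 against 564, 606 and 580.4 FPKM and changed by 0.39 ± 0.09 (SE, adjusted p = 0.00265).

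The other 7 chaperone and folding genes were not called in any siCHD4 comparison. With siDNMT1 their changes ran from -0.37 ± 0.20 (adjusted p = 0.142) for SDF2L1, a cofactor of BiP complexes, to 0.19 ± 0.14 (adjusted p = 0.284) for CRELD2, a stress-induced disulfide protein. CANX, the membrane lectin that pairs with calreticulin, was at 283, 283 and 263 against 296, 314 and 300.2 FPKM, and PDIA6, another isomerase, at 268, 254 and 248 against 258, 281 and 271. The CANX groups were separated by a small gap, and those of PDIA6 overlapped. DNAJB9 and DNAJC3, co-chaperones of BiP, and MANF, a secreted stress protein, had log2 differences of -0.05 ± 0.14 (adjusted p = 0.762), 0.13 ± 0.22 (adjusted p = 0.636) and 0.04 ± 0.11 (adjusted p = 0.781). Of the 7 members with an ERSE, HSPA5, HSP90B1 and CALR were called higher, and CANX, CRELD2, PDIA6 and XBP1 were not.

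**Figure D4:**
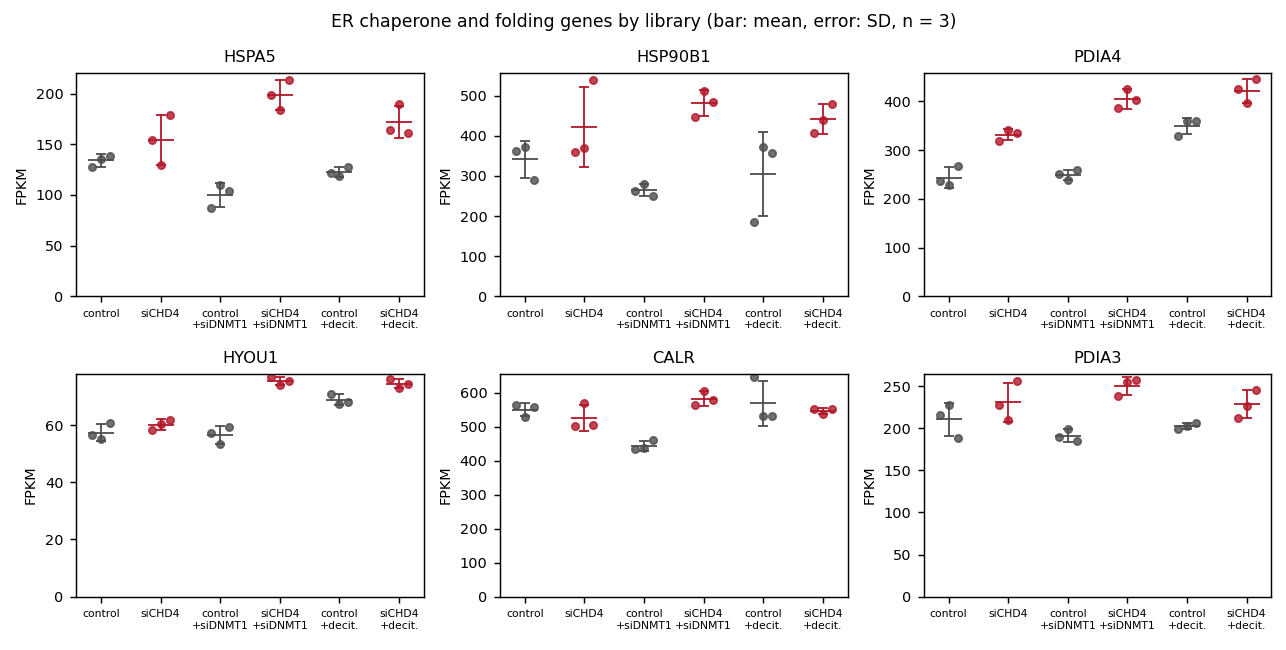
FPKM of the 6 ER chaperone and folding genes called higher with siCHD4 on top of siDNMT1, in each of the 18 libraries (points), with group means (horizontal bars) and SD (error bars, n = 3), control siRNA groups in grey and siCHD4 groups in red. With siDNMT1 the 3 siCHD4 libraries of HSPA5 lie between 184 and 214 FPKM and the control libraries between 87.1 and 109.7.

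Of the 3 genes of ER-associated degradation 2 rose (66.7%) and 0 fell with siCHD4 on top of siDNMT1. All genes called there were 24.8% higher and 24.6% lower. SEL1L, the scaffold of the HRD1 ubiquitin ligase, was at 25.9, 27.8 and 25.3 FPKM against 41.4, 41.8 and 42.0, with 3 nearly equal treated libraries and a change of 0.65 ± 0.17 (SE, adjusted p = 0.00656). EDEM1, which marks misfolded glycoproteins for degradation, was at 12.1, 14.8 and 13.9 against 17.4, 17.2 and 18.7 FPKM. Its groups were separated, with a change of 0.37 ± 0.09 (SE, adjusted p = 0.00452). HERPUD1, which organises the ligase complex, was at 44.05, 48.4 and 46.6 against 40.8, 40.8 and 41.3 FPKM, lower in all 3 treated libraries but not called at -0.17 ± 0.09 (adjusted p = 0.133). With decitabine SEL1L was at 21.0, 34.9 and 32.8 against 38.02, 40.01 and 39.4 FPKM and EDEM1 at 13.3, 13.3 and 13.9 against 15.4, 17.4 and 15.3. Both were separated and neither was called (adjusted p = 0.189 and 0.19).

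The 3 siCHD4 comparisons use different libraries, so their directions can be set side by side. Of the 14 members called higher with siDNMT1, 12 (85.7%) also had a positive change with siCHD4 alone, all but CALR and EDEM1, and 12 had one with decitabine, all but CALR and PPP1R15A. Of the 3175 genes called higher in that comparison 90% and 87.2% had one. Of the 6 members called lower, 5 (83.3%) had a negative change with siCHD4 alone, all but PSPH, and 3 (50%) with decitabine, the others being EIF2AK3, PSAT1 and PSPH. The same shares over the 3148 genes called lower were 92.2% and 84.4%. The shares of the 14 members were near those of all genes. Those of the 6 were lower but rest on few genes, so no difference from all genes is read from them. Replicate 2 of siCHD4, the library with the lowest CHD4, was the highest of its 3 for 10 of the 14 (71.4%, against 62% of all genes called higher with siDNMT1). It was the lowest for 5 of the 6 (83.3%, against 70.8%). Of the 9 epithelial markers tested, 2 were called higher and 2 lower with siCHD4 alone, 6 higher and 2 lower with siDNMT1, and 0 higher and 2 lower with decitabine. Their median changes were 0.24, 0.57 and 0.24. The 2 called lower were KRT8 and KRT18 each time, and CDH1, KRT19, CDX2, VIL1, ELF3 and CLDN4 were the 6 called higher with siDNMT1. KRT8 and KRT18 made up most of the summed level of all 10 markers, which was lower with siCHD4, at 1227 to 1399 FPKM against 2049 to 2169 alone. It was at 1099.8 to 1146 against 1831 to 1915 FPKM with siDNMT1 and at 1470.5 to 1532 against 1913 to 2511 with decitabine. EPCAM was called in none of the 3. The part of these markers, and of those of other cell types, in the members' changes was not tested.

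The size of the siCHD4 effect was compared between the treatments directly. With siDNMT1 it was larger than alone for HSPA5, by 0.79 ± 0.16 (SE, adjusted p = 0.0112), and for HYOU1, by 0.34 ± 0.09 (SE, adjusted p = 0.0436). These 2 members were called higher in this difference and 0 lower, where 2.83% and 1.29% of all genes were called. Their groups differed in schedule as well as in siDNMT1, and the 2 cannot be told apart. The HSPA5 difference held with each library left out in turn. The HYOU1 difference was lost without any 1 of the libraries compared except siCHD4 replicate 2, without which the count of members rose to 11. In that fit 8.5% of all genes were called higher and 11.5% lower.

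Against the decitabine effect the siDNMT1 effect was larger for PPP1R15A, by 0.98 ± 0.22 (SE, adjusted p = 0.0171), for CALR, by 0.44 ± 0.13 (SE, adjusted p = 0.0472), and for PDIA4, by 0.43 ± 0.12 (SE, adjusted p = 0.0389). This made 3 members higher and 0 lower, where 4.16% and 4.24% of all genes were called. The control siRNA means were lower with siDNMT1 than with decitabine, at 248.9 against 349.6 FPKM for PDIA4 and 444.3 against 569.5 for CALR. With siCHD4 the means were 405.2 against 421.9 FPKM for PDIA4 and 583.3 against 547.7 for CALR. For PPP1R15A they were 8.12 against 13.43 FPKM with control siRNA and 13.84 against 10.83 with siCHD4. The larger effect on PDIA4 was thus not a higher mean level with siCHD4. Of the 12 libraries compared, leaving out replicate 1 of control siRNA with siDNMT1 was the one change that lost the PPP1R15A call (adjusted p = 0.0521), while the CALR and PDIA4 calls were lost without most of them. The fall of CHD4 itself was also larger with siDNMT1 than with decitabine, a difference of -0.77 ± 0.19 (SE, adjusted p = 0.0289), and its part in these differences was not tested. Between decitabine and no second treatment 0 members differed at an adjusted p below 0.05. At that threshold 0.773% of all genes were called higher and 0.383% lower. At an unadjusted p below 0.05 the count was 4 members, with no share of all genes to set beside it.

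Given with control siRNA, siDNMT1 lowered 7 members against control siRNA alone and raised 0, where 4.4% of all genes were called lower and 6.94% higher. PHGDH was at 36.7, 33.0 and 36.9 FPKM in the control group and 23.1, 20.3 and 23.7 with siDNMT1, with a wide gap between the groups and a change of -0.65 ± 0.11 (SE, adjusted p = 0.00122). ATF4 changed by -0.47 ± 0.11 (SE, adjusted p = 0.0103). These 2 calls held under every alternative and with each library left out. SHMT2 changed by -0.50 ± 0.14 (SE, adjusted p = 0.0264), HSPA5 by -0.42 ± 0.12 (SE, adjusted p = 0.0286), VEGFA by -0.31 ± 0.09 (SE, adjusted p = 0.043), CALR by -0.31 ± 0.09 (SE, adjusted p = 0.0405) and ASNS by -0.28 ± 0.09 (SE, adjusted p = 0.0478). All 5 separated fully between the groups, but the calls of SHMT2 and CALR were lost without any one of the 6 libraries. Those of HSPA5, VEGFA and ASNS were each lost without 5 of the 6, 1 at a time. The CALR, HSPA5 and ASNS calls were also lost under quantile normalization. HSPA5 was lower than in the control group with siDNMT1 and control siRNA, at 100.4 ± 11.8 against 134 ± 5.99 FPKM (SD, n = 3), and stood at 199 ± 15.1 with siDNMT1 and siCHD4.

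Decitabine with control siRNA raised 4 members and lowered 3 against control siRNA alone, where 9.6% of all genes were called higher and 8.63% lower. PDIA4 was at 236, 228 and 267 FPKM in the control group and 329.6, 359.8 and 359 with decitabine, fully separated, a change of 0.52 ± 0.08 (SE, adjusted p = 0.000559) that held under every alternative and with each library left out. HYOU1 changed by 0.26 ± 0.06 (SE, adjusted p = 0.0109), CRELD2 by 0.51 ± 0.14 (SE, adjusted p = 0.0195) and DDIT4 by 0.90 ± 0.30 (SE, adjusted p = 0.0497). The DDIT4 libraries overlapped between the groups, at 6.22, 6.66 and 2.93 against 6.33, 11.7 and 14.1 FPKM. PHGDH changed by -0.42 ± 0.11 (SE, adjusted p = 0.0173), ATF4 by -0.36 ± 0.11 (SE, adjusted p = 0.0345) and ATF6 by -0.23 ± 0.07 (SE, adjusted p = 0.0255). These 6 calls were each lost without at least 1 library. HYOU1 was lost without control replicate 1 (adjusted p = 0.0587) and CRELD2 without control replicate 1 (0.0882) or the shallowest library (0.0767). With each of the 6 libraries left out in turn, DDIT4 was lost 5 times, ATF4 and PHGDH 4 times each and ATF6 3 times. The siDNMT1 and decitabine comparisons share the 3 control libraries and differ from them in schedule, which cannot be told apart from the treatment.

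Genes of the same pathways outside the members were read from lists written from general knowledge. The counts below stand beside 24.8% of all genes called higher and 24.6% lower with siCHD4 on top of siDNMT1. With siCHD4 on top of siDNMT1 15 of the 20 cytosolic aminoacyl-tRNA synthetases, which charge tRNA and include many ATF4 targets, fell (75%) and 0 rose, with a median change of -0.56. LARS fell from 52.4 ± 1.26 to 31.6 ± 1.69 FPKM (SD, n = 3), a change of -0.71 ± 0.08 (SE, adjusted p = 8.05e-06). FARSB changed by -0.98 ± 0.12 (SE, adjusted p = 2.16e-05) and RARS by -0.73 ± 0.09 (SE, adjusted p = 2.66e-05). With siCHD4 alone 4 of the 20 fell (20%, beside 9.71% of all genes), and with decitabine 1 did (5%, beside 1.31%). EPRS changed by -0.72 ± 0.17 (SE, adjusted p = 0.00768) with siCHD4 alone, a call that was lost when only the compared groups were fitted (adjusted p = 0.057). A CARE was found in the promoters of 7 of the 16 synthetases with an entry (43.8%).

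Of 14 eIF2 kinases, subunits and exchange factor genes 9 fell (64.3%) with siCHD4 on top of siDNMT1 and 1 rose (7.14%), EIF2B1 changing by -0.70 ± 0.10 (SE, adjusted p = 7e-05) and EIF2S1, which encodes the phosphorylated subunit, by -0.72 ± 0.12 (SE, adjusted p = 0.00018). Of 19 tested other ATF4-linked genes 6 rose and 6 fell, 31.6% each way. BCAT2, a branched-chain aminotransferase, was at 40.9 ± 1.45 against 16.7 ± 1.65 FPKM and changed by -1.24 ± 0.15 (SE, adjusted p = 1.95e-05), while SESN2, a stress-induced inhibitor of mTORC1, changed by 0.62 ± 0.09 (SE, adjusted p = 6.14e-05). Of 8 tested other amino acid transporters 2 rose (25%) and 3 fell (37.5%), among them SLC36A1 by 1.00 ± 0.15 (SE, adjusted p = 9.77e-05) and SLC1A4 by -0.69 ± 0.15 (SE, adjusted p = 0.00141).

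Further ER lists are given by the same counts. Of 16 other folding and redox enzymes 4 rose (25%, about the share of all genes) and 1 fell (6.25%), with P4HB, a disulfide isomerase, at 267 ± 15.2 against 349 ± 5.67 FPKM and a change of 0.39 ± 0.08 (SE, adjusted p = 0.00151). Of 17 other degradation genes 1 rose (5.88%) and 6 fell (35.3%). The one that rose was SYVN1, the HRD1 ligase that SEL1L holds, from 4.03 ± 0.351 to 9.04 ± 2.09 FPKM, by 0.98 ± 0.18 (SE, adjusted p = 0.000585), and UBE2J1, an ER-bound ubiquitin-conjugating enzyme, changed by -0.59 ± 0.13 (SE, adjusted p = 0.00158). Of 20 translocon and signal recognition genes 2 rose (10%) and 7 fell (35%), with SSR3 changing by -0.65 ± 0.09 (SE, adjusted p = 7.28e-05). Of 7 tested genes of ATF6 processing and ER-bound CREB factors 4 rose (57.1%) and 0 fell, among them MBTPS1, the protease that first cuts ATF6, by 0.35 ± 0.09 (SE, adjusted p = 0.00333).

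Heat shock genes of the cytosol and hypoxia-responsive genes were read beside these as other stress programmes. Of 13 heat shock genes 3 rose and 3 fell with siCHD4 on top of siDNMT1, 23.1% each way and no more than among all genes. HSPA1A, an inducible HSP70, changed by 1.07 ± 0.15 (SE, adjusted p = 5.08e-05) and HSPB1, a small heat shock protein, by 1.40 ± 0.21 (SE, adjusted p = 9.16e-05). Of 12 tested hypoxia-responsive genes 3 rose (25%, about the share of all genes) and 4 fell (33.3%), with NDRG1 changing by 1.38 ± 0.17 (SE, adjusted p = 2.09e-05) and PDK1, which restrains pyruvate oxidation, by -1.38 ± 0.13 (SE, adjusted p = 9.97e-07). Given with control siRNA, siDNMT1 raised CBS, which starts cysteine synthesis from homocysteine, from 0.0167 ± 0.029 to 1.83 ± 0.323 FPKM, and decitabine raised it to 2.49 ± 0.988. WFS1, an ER membrane protein, rose from 7.00 ± 0.255 to 15.0 ± 1.51 and 20.4 ± 3.18 FPKM in the same order. GDF15, a secreted stress factor, rose from 5.57 ± 0.899 to 27.5 ± 13.3 FPKM with decitabine, by 2.03 ± 0.27 (SE, adjusted p = 0.00012).

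**Figure D5:**
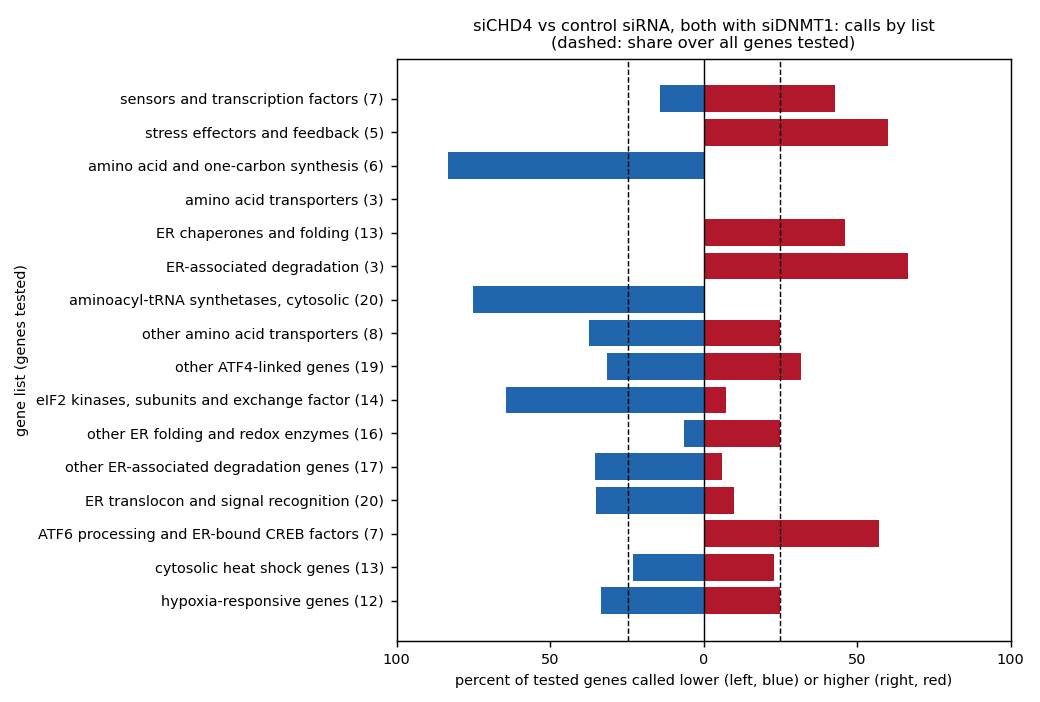
Percent of the tested genes of each list (number tested in brackets) called higher (right, red) or lower (left, blue) with siCHD4 on top of siDNMT1, with dashed lines at the 24.8% and 24.6% of all genes tested. The synthesis genes, tRNA synthetases and eIF2 genes lie to the left of the line at 83.3%, 75% and 64.3%. To the right lie the 3 ER-associated degradation genes at 66.7%, the 5 stress effectors at 60% and the ATF6 processing list at 57.1%.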

How the data were processed

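RNA from 18 SW48 samples was extracted with Trizol or RNeasy columns and sequenced as stranded, rRNA-depleted libraries, per the labels' protocols. The authors deposited FPKM values per gene for each library. The submitters' processing notes name TopHat2 2.0.9, Cuffdiff 2.1.1 and hg19. For the annotation and for the scaling of libraries to each other, the method is not given in the sources used here. Read totals are unknown. Of 23599 entries, 28 carry spreadsheet dates in place of symbols and were left out, and 3747 named genes were at 0 in every library.

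Genes that reached 1 FPKM in 3 or more libraries were fitted as log2(FPKM + 1), a scale that understates changes of low genes, with limma 3.58.1 in R 4.3.3 (means of 6 groups, 12 residual degrees of freedom, trended variance, Benjamini-Hochberg adjustment over all genes tested). Differences between siCHD4 effects were contrasts of that fit. With 3 libraries against 3, an exact permutation test of a single gene cannot go below p = 0.1, so no such test is given. Pearson's r within groups ran from 0.929 to 0.98, and no 2 libraries were identical. Alternatives were a pseudocount of 0.1, other filters, rescaling, quantile normalization, library weights, the compared groups alone, a replicate block and each library left out.

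The members and lists were chosen with earlier results of these data known. Each member may be named. Per-library values are given for members called in a siCHD4 comparison, for stress regulators and for some members without such a call. Up to 3 called genes with the smallest p are named per other list and comparison. Gene coordinates are from GENCODE 44 mapped to GRCh37. Promoter sequences and their coordinates are RefSeq's on GRCh38.p14, and the builds were not mixed.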

Additional observations from a re-analysis of the deposited data

Results flagged for a closer look

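Each difference here is a contrast of siCHD4 effects by limma with an adjusted p below 0.05 over all 12809 genes, on the log2(FPKM + 1) scale with its SE. The treatments compared also differ in schedule, which cannot be told apart from them. The siCHD4 effect with siDNMT1 exceeded that without a second treatment for HSPA5, by 0.79 ± 0.16 (adjusted p = 0.0112), for HYOU1, by 0.34 ± 0.09 (0.0436), and for HSPA1A, by 1.20 ± 0.21 (0.0028). It was lower for LARS, with a difference of -0.58 ± 0.11 (adjusted p = 0.00652), for FARSB, with -0.67 ± 0.17 (0.042), and for EIF2B1, with -0.56 ± 0.14 (0.0413). Of all genes 2.83% were called higher and 1.29% lower in this difference. With each of 12 libraries left out in turn, the HSPA5 call was lost 0 times and the HYOU1 call 11 times.

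Against the siCHD4 effect with decitabine, that with siDNMT1 was higher for 3 ER stress genes, PPP1R15A by 0.98 ± 0.22 (adjusted p = 0.0171), CALR by 0.44 ± 0.13 (0.0472) and PDIA4 by 0.43 ± 0.12 (0.0389). With each of 12 libraries left out in turn, these calls were lost 1, 10 and 11 times in that order. Of all genes 4.16% were called higher and 4.24% lower in this difference. All 3 genes had lower control siRNA means with siDNMT1 than with decitabine, for PDIA4 248.9 against 349.6 FPKM and for CALR 444.3 against 569.5. With siCHD4 the PDIA4 mean was no higher with siDNMT1 (405.2 FPKM) than with decitabine (421.9), and the CALR means were 583.3 and 547.7. Of the genes in related lists, SESN2 was higher by 0.51 ± 0.12 (adjusted p = 0.0264), SYVN1 by 0.94 ± 0.26 (0.0389), HSPA1A by 0.81 ± 0.21 (0.0314), HSPB1 by 1.01 ± 0.30 (0.0477) and NDRG1 by 1.00 ± 0.24 (0.0256). The difference was -0.60 ± 0.11 for LARS (adjusted p = 0.00767), -0.67 ± 0.17 for FARSB (0.0322), -0.55 ± 0.13 for RARS (0.0256) and -0.90 ± 0.23 for EPRS (0.0326). It was -0.55 ± 0.14 for EIF2B1 (adjusted p = 0.0326), -0.62 ± 0.17 for EIF2S1 (0.0351), -0.50 ± 0.13 for SSR3 (0.036) and -0.996 ± 0.178 for PDK1 (0.00579). CHD4 itself fell further with siDNMT1 than with decitabine, and its part in these differences was not tested.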

How the results depend on the processing

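With siCHD4 on top of siDNMT1, where 20 members were called, every alternative gave between 19 and 27 calls. Of the 20 calls 19 held under all of them, EIF2AK3 being the exception. All genes called there were 34.8% higher and 36.8% lower with library weights and 31% and 33.5% with the compared groups alone. They were 23.4% and 15.4% with no filter and 19.9% and 19.4% without replicate 0 of siCHD4 with siDNMT1. The counts for the other comparisons moved by over 1.5 times, and apart from settings that drop libraries or genes the cause was not tested. With siCHD4 alone the 3 calls became 7 under quantile normalization, 0 when only the compared groups were fitted, 14 with library weights and 10 without the shallowest library (an alternative chosen after seeing the data), and 1 to 7 with each library left out. The shares of all genes called moved as well. They were 8.1% higher and 9.9% lower under quantile normalization and 2.12% and 1.89% with the compared groups. Library weights gave 22% and 24.1%, and the fit without the shallowest library 12.8% and 14.1%. With decitabine the 1 siCHD4 call became 2 under quantile normalization, 0 with the compared groups alone, 11 with library weights and 0 to 3 with a library left out. All genes called were 2.76% higher and 1.83% lower, 1.02% and 0.125%, and 14.6% and 14.3% in the first 3 of these settings. For siDNMT1 against control the 7 calls became 4 under quantile normalization, 21 with library weights, 11 without the shallowest library and 2 to 4 with any library left out. All genes called were 5.86% higher and 4.49% lower, 16.2% and 17.8%, and 9.36% and 7.1% in the first 3 of these. For decitabine against control the 7 became 2 with the compared groups alone, 17 with library weights and 2 to 9 with a library left out. All genes called were 4.31% higher and 2.94% lower with the compared groups and 20.6% and 23.2% with library weights.

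For the siCHD4 effect with siDNMT1 against that alone, the 2 calls became 1 with a pseudocount of 0.1, a filter at 5 FPKM or the compared groups alone. They became 5 with no filter, 4 under quantile normalization, 25 with library weights, 5 without the shallowest library and 1 to 11 with a library left out. All genes called were 4.34% higher and 1.17% lower with no filter and 2.93% and 2.22% under quantile normalization. They were 23% and 25% with library weights and 4.2% and 2.92% without the shallowest library. For decitabine against none the 0 became 6 with library weights and 0 to 1 with a library left out. Library weights called 10.9% of all genes higher and 7.95% lower there. For siDNMT1 against decitabine the 3 became 5 with no filter, 10 with the compared groups alone, 20 with library weights and 0 to 3 with a library left out. All genes called were 4.03% higher and 2.6% lower, 7.06% and 7.82%, and 19.8% and 24.1% in the first 3 of these. ATF4 reversed to 0.0257 and 0.0251 under quantile normalization in the siCHD4 comparisons with siDNMT1 and with decitabine.

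With the replicate number as a block, siDNMT1 against control gave 4 calls, and the differences of siCHD4 effects with siDNMT1 against none and against decitabine gave 1 and 1. All genes called were 6.28% higher and 3.49% lower, 2.44% and 0.71%, and 2.77% and 2.63% in the same order. Same-numbered libraries of different groups had residual correlations between -0.31 and 0.126. Libraries of unlike number were not set beside them, so these values do not settle whether the numbers pair the libraries. Read totals are unknown, so counting error could not be given for low genes such as CHAC1, SLC7A11 and ATF3.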
